A study of Homo sapiens with 24 samples.

Results

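The genes of the TGF-beta and BMP pathway were followed by their mRNA levels in 4 aneuploid cell lines and the parental lines they came from. The 43 genes were chosen by name, with earlier results of these data known. They encode ligands, latent binding proteins, antagonists, receptors, SMADs, SMAD regulators and targets. A gene was kept in a comparison table where its mean normalized count was at least 10, which left 40 of 13887 genes in the table of HCT116 5/4 and 37 of 13869 in that of HCT116* 8/3 c7. It left 42 of 13278 in that of RPE1 5/3 12/3, and for RPE1* 21/3 the number was 42 of 13101. TGFBI, with a mean of 15.8 in the table of HCT116 5/4, lay just inside this limit and TGFB2, with 9.63 in that of HCT116* 8/3 c7, just outside. Each member reached this level in at least 1 table, and 36 did so in all 4. HCT116 is a near-diploid human colorectal cancer line (modal number 45) and RPE1 a near-diploid retinal pigment epithelial line immortalized with hTERT (modal number 46). An asterisk marks stable expression of histone H2B tagged with GFP, which the aneuploid line and its parental line then both carry. HCT116 5/4 is tetrasomic for chromosome 5 and was compared with HCT116, and HCT116* 8/3 c7 is 1 clone trisomic for chromosome 8 and was compared with HCT116*. RPE1 5/3 12/3 is trisomic for chromosomes 5 and 12, the latter a spontaneous gain, and was compared with RPE1, and RPE1* 21/3 is trisomic for chromosome 21 and was compared with RPE1*. HCT116 5/4 and its parental line came from another laboratory, and the other aneuploid lines were made by transfer of a chromosome in a microcell. Every line was untreated and sequenced as 3 libraries, 24 in all, and the labels do not say whether these were separate cultures. Where 4 values follow each other, the tables come in the order of this paragraph, with HCT116 lines first, and where a pair of values is given for a cell type, the same order holds.

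The value used for each gene is the authors' mean normalized count, a mean over the 6 libraries of a table, so that an aneuploid line and its parental line cannot be told apart in it. It comes without a spread between libraries, and the tables were normalized separately, so levels are described side by side and no test was made. For levels across tables, each table was shifted on the log2 scale by its median ratio over the 11939 genes that passed the level filter in all 4 tables, and 1 was added to each value. The shifts were 0.10, 0.15, 0.019 and -0.28, and all folds and differences are after this step, while levels are the authors' means as deposited. In the tables of HCT116 lines 10 of 13 colon epithelial markers had a mean of at least 10, CDX1, VIL1 and LGR5 being the exceptions. In the tables of RPE1 lines only KRT8 and KRT18 of that list did so. Of 11 markers of retinal pigment epithelium 9 and 7 reached that mean in the RPE1 tables, KRT8 and KRT18 among them, since both lists hold these keratins, and 6 did so in each HCT116 table. TYRP1 and TTR were not listed in any table. RPE65, the retinoid isomerase that defines this epithelium, PMEL, SERPINF1 and the keratins had lower means in the RPE1 than in the HCT116 tables. MITF and BEST1 had higher means in the RPE1 tables, and OTX2 and RLBP1 were listed only there. MITF had 1439 and 1124 in the RPE1 tables against 67.4 and 62.04 in the HCT116 tables. OTX2 had 715 and 419 in the RPE1 tables. RPE1 cells thus carried some markers of their label and lacked others. Of 11 mesenchymal markers 10 reached a mean of at least 10 in each table of RPE1 lines and 6 in each table of HCT116 lines. Their summed means were 558169 and 497308 in the RPE1 tables against 10714 and 12101 in the HCT116 tables. FN1, at 368294 and 373337, and VIM, at 175391 and 110087, held most of the RPE1 sums. S100A4, which was higher in the HCT116 tables, held most of the sums there, at 7999 and 10305. Of 5 blood cell markers between 0 and 2 reached a mean of at least 10.

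TGF-beta, activin and BMP ligands are secreted dimers that bring together type I and type II receptor kinases at the cell surface. The TGF-beta and activin receptors phosphorylate SMAD2 and SMAD3, the BMP receptors SMAD1, SMAD5 and SMAD9, and these enter the nucleus with SMAD4 to change transcription. TGF-beta is kept latent in the matrix by its propeptide and some of the LTBP proteins. SMAD7, SKIL, BAMBI and PMEPA1 are induced by the pathway and limit it. In epithelial cells TGF-beta slows proliferation and can drive a mesenchymal state, and many colorectal cancers with mismatch repair defects, the class HCT116 belongs to, have lost a working TGFBR2 protein, which an mRNA level does not show.

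The 250 bases before the transcription start are given for 4 members with a single start in RefSeq, because they show pathway genes with and without sequences that SMAD proteins are known to bind. Capitals mark CAGAC, the box bound by SMAD3 and SMAD4, GTCTAGAC, a palindrome of the same site, and GGCGCC, a GC-rich sequence bound by BMP-activated SMADs. Each was searched on both strands and no motif lies inside another. The sequences and positions are those of RefSeq on GRCh38.p14, written 5′ to 3′ in the direction of transcription.
TGFB2, chr1:218345086-218345335, plus strand: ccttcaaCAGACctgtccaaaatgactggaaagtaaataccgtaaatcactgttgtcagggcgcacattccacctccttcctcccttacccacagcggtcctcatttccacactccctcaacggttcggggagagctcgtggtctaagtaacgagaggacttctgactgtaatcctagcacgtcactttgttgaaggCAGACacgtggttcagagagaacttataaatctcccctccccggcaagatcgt
BAMBI, chr10:28677271-28677520, plus strand: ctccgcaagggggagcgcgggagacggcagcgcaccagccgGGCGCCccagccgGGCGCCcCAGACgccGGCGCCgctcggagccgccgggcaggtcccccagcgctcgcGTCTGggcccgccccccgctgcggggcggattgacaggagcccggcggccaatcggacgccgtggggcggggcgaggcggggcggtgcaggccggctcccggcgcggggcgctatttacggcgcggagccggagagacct
SMAD6, chr15:66701986-66702235, plus strand: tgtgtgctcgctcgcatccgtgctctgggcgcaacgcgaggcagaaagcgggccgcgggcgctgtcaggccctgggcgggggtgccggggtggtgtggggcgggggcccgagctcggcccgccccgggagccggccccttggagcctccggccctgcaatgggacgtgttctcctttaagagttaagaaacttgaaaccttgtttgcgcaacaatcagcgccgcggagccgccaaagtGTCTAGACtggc
ID2, chr2:8681806-8682055, plus strand: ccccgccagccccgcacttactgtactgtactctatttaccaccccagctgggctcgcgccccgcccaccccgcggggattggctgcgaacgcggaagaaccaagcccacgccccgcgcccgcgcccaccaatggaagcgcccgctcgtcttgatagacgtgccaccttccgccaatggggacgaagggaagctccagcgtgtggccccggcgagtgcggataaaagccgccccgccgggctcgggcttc
TGFB2 had 2 matches to CAGAC, BAMBI matches to CAGAC and GGCGCC, and ID2 no match to any of the 3. SMAD6 was the only member whose window held GTCTAGAC. This palindrome was found in 0.182% of the 35116 promoter entries of the table, CAGAC in 38% and GGCGCC in 16.4%. Entries for 40 members were found, 79 in all, of which 33 held CAGAC, 1 GTCTAGAC and 18 GGCGCC. A match describes the letters of the window and not binding in these cells.

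The tables of HCT116 lines and RPE1 lines were compared first, since the aneuploid lines were made from cells of different origin. A gene was called higher in the tables of a cell type when each of the 4 pairings of an HCT116 with an RPE1 table differed by more than 2-fold in the same direction. Of the 36 members that passed the level filter in all tables, 12 were higher in RPE1 and 4 in HCT116, and 20 were not set apart. The members higher in RPE1 were TGFB1, BMP6, LTBP1, LTBP2, LTBP3, TGFBR2, BMPR2, BAMBI, SMAD3, SMAD9, SMAD7 and SKIL. Those higher in HCT116 were ID1, ID2, TGFBR3 and TGIF1. By the same rule 10.8% of all 11939 genes were higher in RPE1 and 9.48% in HCT116, 20.3% together, against 33.3% and 11.1% of the members, 44.4% together. Since the members were chosen with earlier results of these data known, their shares describe a chosen list. The difference of the cell types, HCT116 minus RPE1, had a median of -0.76 on the log2 scale over the members and of 0.0034 over all genes, and 25 of the 36 members lay below 0. With the means as deposited, which moved the median of all genes by 0.26 toward HCT116, 12.5% of all genes were higher in HCT116 and 7.97% in RPE1, and the members' counts were 4 and 11, SMAD3 being the gene lost. The summed mesenchymal markers moved with this split, their part in it was not tested, and cell type, tissue of origin and line history cannot be told apart in these libraries. In bulk RNA, fewer cells with a transcript and less of it per cell cannot be told apart either.

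**Figure D1:**
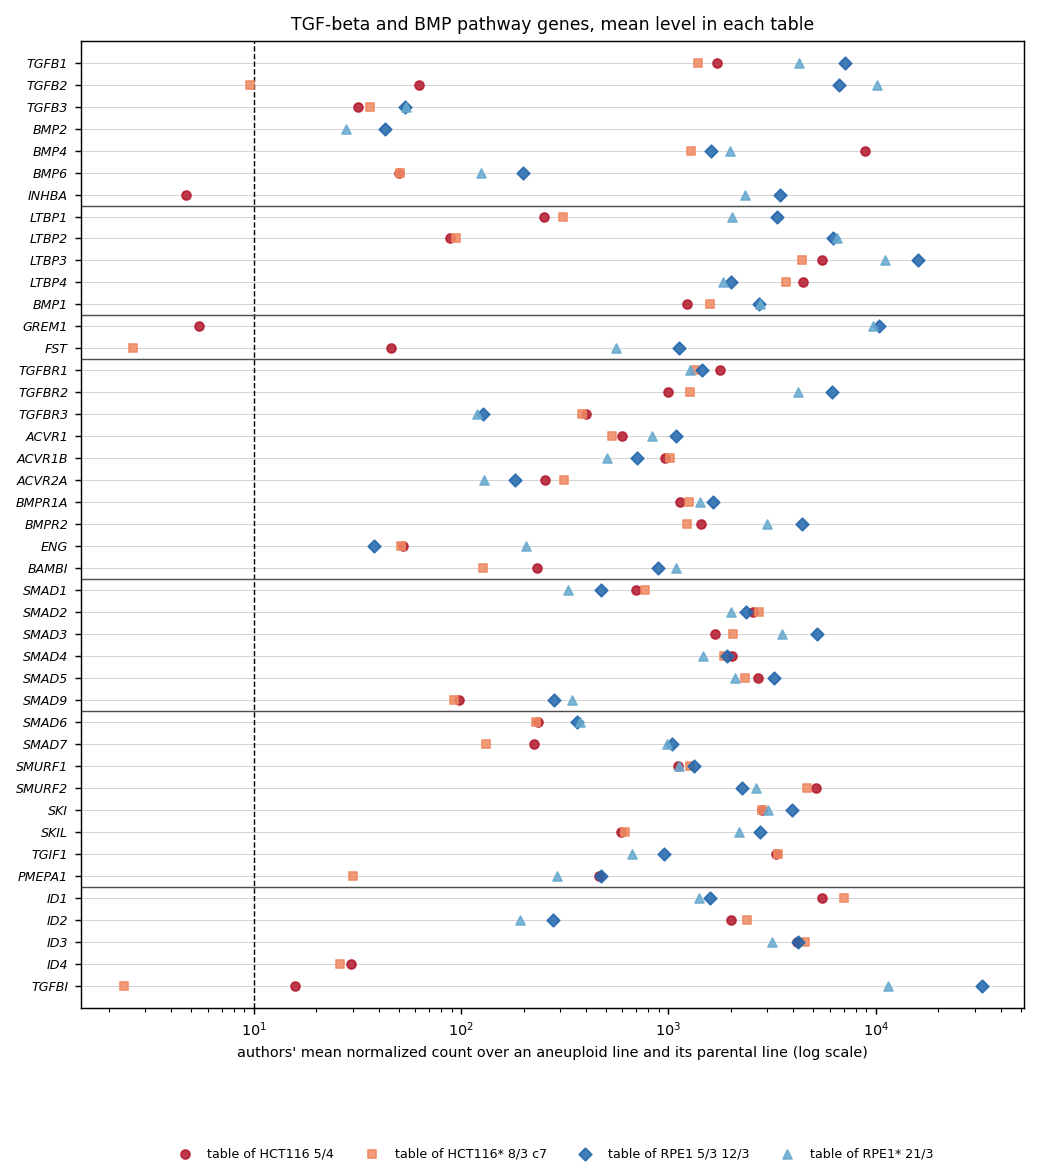
Mean normalized count of each of the 43 members (log axis) in the 4 tables, each point 1 table, with genes grouped by role between the horizontal lines and the dashed line at a mean of 10. A gene with no point in a table was not listed there. TGFB2, INHBA, GREM1, FST and TGFBI lie far to the left in the HCT116 tables, and SMAD2, SMAD4 and ID3 have their 4 points close together.

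**Figure D2:**
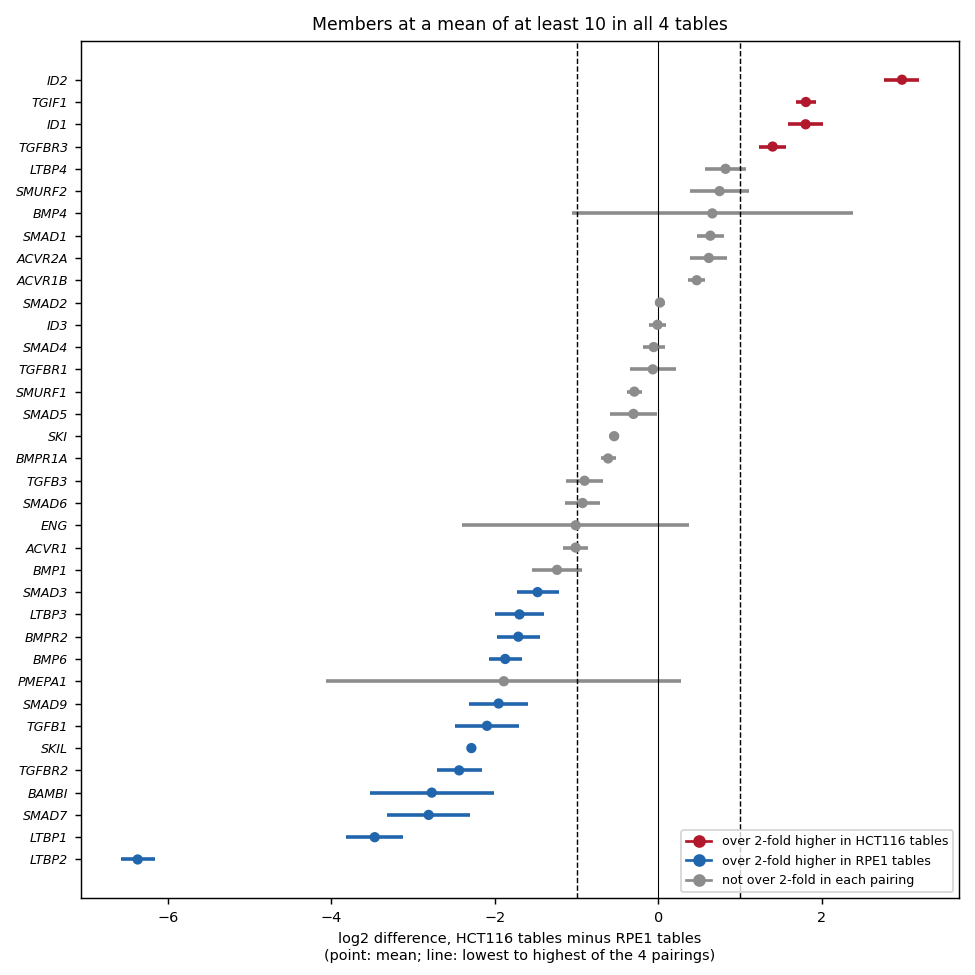
Log2 difference between HCT116 and RPE1 tables for the 36 members that passed the level filter in all tables, as the mean (point) and the range of the 4 pairings (line), with dashed lines at 2-fold. The 12 members in blue are higher in RPE1 and the 4 in red are higher in HCT116 in each pairing, from LTBP2 at -6.37 to ID2 at 2.98.

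Among the ligands, the TGF-beta isoforms differed in how far the cell types lay apart. TGFB1 had means of 1709 and 1394 in the HCT116 tables and of 7118 and 4276 in the RPE1 tables, which is 3.26-fold to 5.60-fold higher in RPE1. TGFB2, at chr1:218518678-218617961 on GRCh37, had 62.8 and 9.63 in the HCT116 tables and 6661 and 10161 in the RPE1 tables. Since it did not pass the level filter in the table of HCT116* 8/3 c7, it was given no call. TGFB3 was low throughout, at 31.9 to 54.4, and was not set apart. INHBA, whose product forms activin A, had 3458 and 2347 in the RPE1 tables, 4.72 in that of HCT116 5/4, and was not listed in that of HCT116* 8/3 c7. A gene not listed has no row in a table, and the lowest means listed were between 1.98 and 3.36.

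The BMP ligands did not follow a common order. BMP4, on chr14:54416454-54425479, had 8843 in the table of HCT116 5/4, against 1278 in that of HCT116* 8/3 c7 and 1601 and 1974 in the RPE1 tables. The table of HCT116 5/4 stood above the RPE1 tables and that of HCT116* 8/3 c7 below them after the shift, so that the log2 difference of the pairings ran from -1.06 to 2.38 and BMP4 was not set apart between cell types. BMP6 had 50.3 and 50.9 in HCT116 and 198 and 125 in RPE1, 3.19-fold to 4.21-fold higher in RPE1. BMP2 was low in RPE1, at 42.997 and 27.7, and was not listed in either HCT116 table.

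Both secreted antagonists among the members had higher means in the RPE1 tables, and neither was given a call, since each was under the level filter or not listed in some HCT116 table. GREM1, which binds and blocks BMP ligands (chr15:33010205-33037307), had 10344 and 9683 in the RPE1 tables, 5.44 in the table of HCT116 5/4 and no entry in that of HCT116* 8/3 c7. FST, or follistatin, which neutralizes activin, had 1120.0 and 557 in RPE1 and 45.8 and 2.61 in HCT116, so the HCT116 tables also lay far apart. FST lies on chromosome 5 (chr5:52776456-52782964).

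The latent TGF-beta binding proteins, some of which tether the latent ligand to the matrix, differed by member. LTBP1 had 251 and 311 in HCT116 and 3345 and 2018 in RPE1, 8.71-fold to 14.1-fold higher. LTBP2 (chr14:74964886-75079081) had 88.0 and 94.4 against 6216 and 6523, 71.5-fold to 95.4-fold higher. This was the widest difference among the members that passed the level filter in all tables. LTBP3 had 5506 and 4388 against 15999 and 11107, 2.63-fold to 4.003-fold higher. These 3 thus shared a direction and not a size, with tables of a cell type close together. LTBP4 lay the other way, at 3707 to 4473 in HCT116 and 1842 to 2009 in RPE1, and did not reach 2-fold in each pairing. BMP1, a metalloprotease in spite of its name, was 1.91-fold to 2.91-fold higher in RPE1 and missed the 2-fold limit in 1 of the 4 pairings.

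The receptors held both near-equal and unequal members. TGFBR2, the type II receptor of TGF-beta (chr3:30648093-30735634), had 998 and 1272 in HCT116 and 6167 and 4217 in RPE1, 4.47-fold to 6.55-fold higher in RPE1. Its type I partner TGFBR1 had 1347 to 1778 in HCT116 and 1271 to 1445 in RPE1, and its 4 shifted values lay within 1.37-fold. BMPR2, the type II receptor of BMPs, had 1434 and 1227 against 4400.0 and 3003 and was 2.73-fold to 3.94-fold higher in RPE1. In the type I group BMPR1A, ACVR1 and ACVR1B stayed between 503 and 1643 and were not set apart, nor was the type II receptor ACVR2A at 129 to 314. Of the co-receptors, TGFBR3, or betaglycan, which presents TGFB2 to TGFBR2, had 401 and 382 in HCT116 and 127 and 120 in RPE1, 2.36-fold to 2.95-fold higher in HCT116. BAMBI, a decoy that resembles a type I receptor without a kinase, had 233 and 127 in HCT116 and 890 and 1092 in RPE1, 4.04-fold to 11.5-fold higher in RPE1. TGFBR3 and TGFBR2 thus had opposite orders in the cell types. ENG, or endoglin, had 52.6 and 51.5 in HCT116, 37.8 in the table of RPE1 5/3 12/3 and 205 in that of RPE1* 21/3, so that only the last stood apart.

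The SMAD genes included the most even members of the pathway. SMAD2 had 2556, 2749, 2371 and 2014 in the 4 tables, within 1.06-fold after the shift, the narrowest span among the 36 members. SMAD4, the common partner, spanned 1.14-fold and SMAD5 1.51-fold. SMAD1 spanned 1.75-fold, with its higher values in HCT116. SMAD3 had 1668 and 2054 in HCT116 against 5230.0 and 3547 in RPE1 and was 2.33-fold to 3.33-fold higher there, a call that was lost with the means as deposited. SMAD9, a further BMP-activated SMAD, had 97.9 and 91.9 against 281 and 342, 3.02-fold to 4.96-fold higher in RPE1. Both groups of receptor SMADs thus held members that were set apart and members that were not.

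Of the inhibitory SMADs, SMAD7, which recruits SMURF ubiquitin ligases to the TGF-beta receptor (chr18:46446223-46477335), had 224 and 132 in HCT116 and 1044 and 984 in RPE1, 4.94-fold to 9.95-fold higher. SMAD6, which acts mainly on BMP signals and whose promoter is shown above with the palindrome, had 228 to 234 against 363 to 373 and was not set apart. Of the ligases, SMURF1 spanned 1.31-fold over the tables. SMURF2 was at 4648 to 5173 in HCT116 and 2251 to 2638 in RPE1 and did not reach 2-fold in each pairing. SKI and SKIL are corepressors of SMAD proteins. SKIL had 592 and 616 in HCT116 and 2778 and 2187 in RPE1, and its pairings lay closely together at 4.79-fold to 4.97-fold higher in RPE1. SKI spanned 1.52-fold. TGIF1, a homeodomain corepressor (chr18:3411606-3459976), had 3291 and 3378 in HCT116 and 955 and 664 in RPE1, 3.22-fold to 3.80-fold higher in HCT116. PMEPA1, a membrane protein that keeps SMAD2 and SMAD3 from the receptor, had 460 in the table of HCT116 5/4, 30.0 in that of HCT116* 8/3 c7, and 472 and 290 in the RPE1 tables, so that only the table of HCT116* 8/3 c7 was low.

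The ID genes, targets of BMP signals that encode helix-loop-helix proteins without a DNA-binding part, were in part higher in the HCT116 tables. ID1 (chr20:30193086-30194318) had 5516 and 7063 in HCT116 and 1587 and 1409 in RPE1, 3.005-fold to 4.05-fold higher in HCT116. ID2 (chr2:8818975-8824591), the member without a motif match among the promoters shown, had 2009 and 2395 against 277 and 193 and was 6.81-fold to 9.16-fold higher in HCT116, the widest difference in that direction. ID3 had 4163, 4539, 4232 and 3160 in the 4 tables, within 1.09-fold after the shift. ID4 was low in HCT116, at 29.6 and 25.9, and not listed in RPE1. The family thus differed among itself, from an even ID3 to an ID4 listed in the HCT116 tables only. TGFBI, a matrix protein named for its induction by TGF-beta (chr5:135364677-135399507), had 15.8 and 2.35 in HCT116 and 32370.1 and 11457 in RPE1. The cell types lay further apart for it than for the ID genes, and the tables of each cell type differed as well.

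Per length of exon, the order of the members also differed between the cell types. Lengths were the union of the exons of each gene in GENCODE on GRCh37, and a value is a mean count per kilobase within 1 table. Reads had been counted on RefSeq exons, so a union can hold bases that were not counted, to a different extent for each gene. ID1 ranked first in both HCT116 tables, at 4474 and 5728 per kilobase. BMP4 ranked second in the table of HCT116 5/4 and ninth in that of HCT116* 8/3 c7, where ID3 and ID2 followed ID1. In the table of RPE1 5/3 12/3 TGFBI was first at 4195 per kilobase, followed by ID3 at 2829 and TGFB1 at 2181. In that of RPE1* 21/3 ID3 was first at 2112, followed by TGFB2 at 1679, TGFBI at 1485 and TGFB1 at 1310. The length of the canonical transcript was also used in place of the union of exons. Of the 20 entries at ranks 1 to 5, counted over the 4 tables with genes recurring, 16 then stayed there. TGFBI passed ID3 in the table of RPE1* 21/3.

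Differences between tables of the same cell type were rarer. More than 2-fold lay between the HCT116 tables for 2 of the 36 members, PMEPA1 and BMP4, or 5.56% against 3.53% of all genes. BMP4 was 7.15-fold and PMEPA1 15.3-fold higher in the table of HCT116 5/4. Between the tables of RPE1 lines ENG alone among the 36 members differed, or 2.78% against 1.96% of all genes, and it was 6.51-fold higher in the table of RPE1* 21/3. These shares rest on 3 genes, and the median absolute log2 difference of the members, 0.20 between the HCT116 and 0.23 between the RPE1 tables, was near that of all genes, 0.20 and 0.16. Below the level filter in some table, TGFB2 was 6.15-fold, FST 13.0-fold and TGFBI 5.04-fold higher in the table of HCT116 5/4 than in that of HCT116* 8/3 c7, from means of 2.35 to 9.63 in the latter. TGFBI also differed 2.30-fold between the RPE1 tables, with the higher value in that of RPE1 5/3 12/3. Each of these tables combines an aneuploid line with its own parental line, and the HCT116 tables and the RPE1 tables each differ in H2B-GFP and, for HCT116, in the laboratory the lines came from, so the share of the gained chromosome in these differences cannot be told apart from the rest. Of the members, TGFBI, SMAD5 and FST lie on chromosome 5, ACVR1B on chromosome 12, BMP1 on chromosome 8 and none on chromosome 21. SMAD5 was 1.20-fold higher in the table of HCT116 5/4 and 1.25-fold higher in that of RPE1 5/3 12/3 than in the other of the cell type. ACVR1B was 1.14-fold higher in the table of RPE1 5/3 12/3 than in that of RPE1* 21/3. BMP1 was 1.24-fold higher in the table of HCT116* 8/3 c7 than in that of HCT116 5/4.

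**Figure D3:**
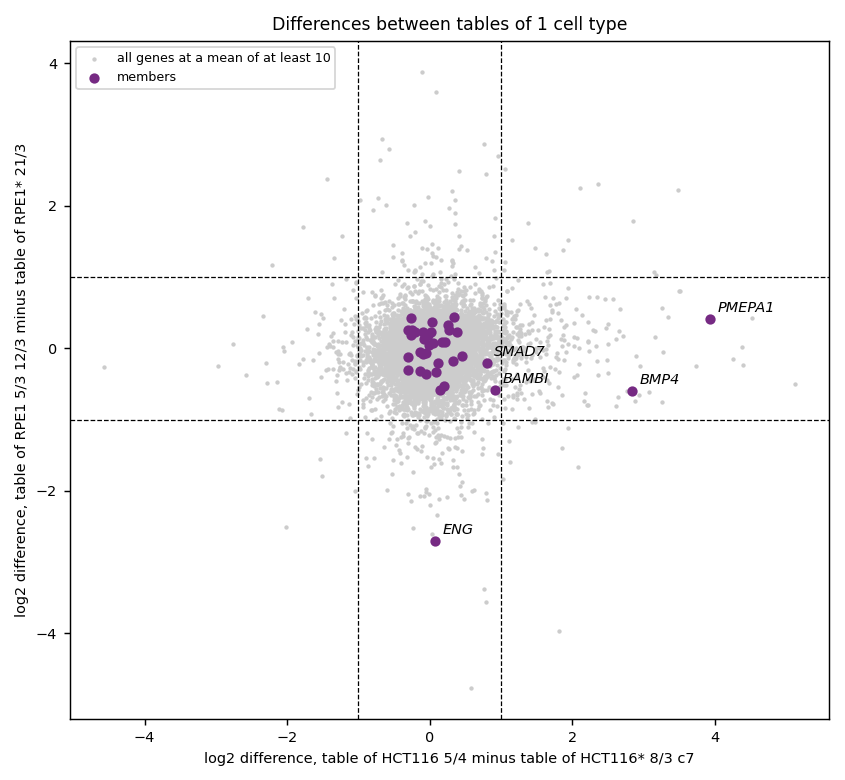
Log2 difference between the HCT116 tables (x axis) and between the RPE1 tables (y axis) for the 36 members (purple) and all 11939 genes (grey) that passed the level filter in all tables, with dashed lines at 2-fold. PMEPA1 and BMP4 lie to the right of the HCT116 lines and ENG below those of RPE1, and the other members lie inside both.

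A list of 56 further genes of the pathway, also chosen with earlier results of these data known, was read in the same way. Of these genes, 33 passed the level filter in all tables. Of the 33, 12 were higher in RPE1 (36.4%) and 1 in HCT116 (3.03%), where 10.8% and 9.48% of all genes were. Among those furthest toward RPE1 were THBS1, which activates latent TGF-beta, and CTGF, a matrix protein induced by TGF-beta. THBS1 had means of 2790 and 616 in HCT116 and 93424 and 132440.0 in RPE1, a log2 difference of -6.66. CTGF had 1106 and 186 in HCT116 and 11614 and 16606 in RPE1, a difference of -5.19. ACVR2B, an activin type II receptor, was the gene higher in HCT116, named here after its values were seen, with 717 and 1084 against 148 and 113. Outside the level filter GDF15, a stress-induced ligand of the family, had 4368 and 3453 in HCT116 and 4.74 and 3.59 in RPE1, and CHRD, or chordin, a BMP antagonist, had 470.0 and 225 against 3.93 and 5.22. BMP8A, a BMP ligand, had 346 and 266 against 5.48 and 4.59. With the means as deposited, 10 of the 33 were higher in RPE1 and 1 in HCT116, where 7.97% and 12.5% of all genes were. Between the tables of HCT116 lines, 6 of the 33 genes differed by more than 2-fold, or 18.2% where 3.53% of all genes did, and between those of RPE1 the share was 9.09% where 1.96% of all genes did.

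**Figure D4:**
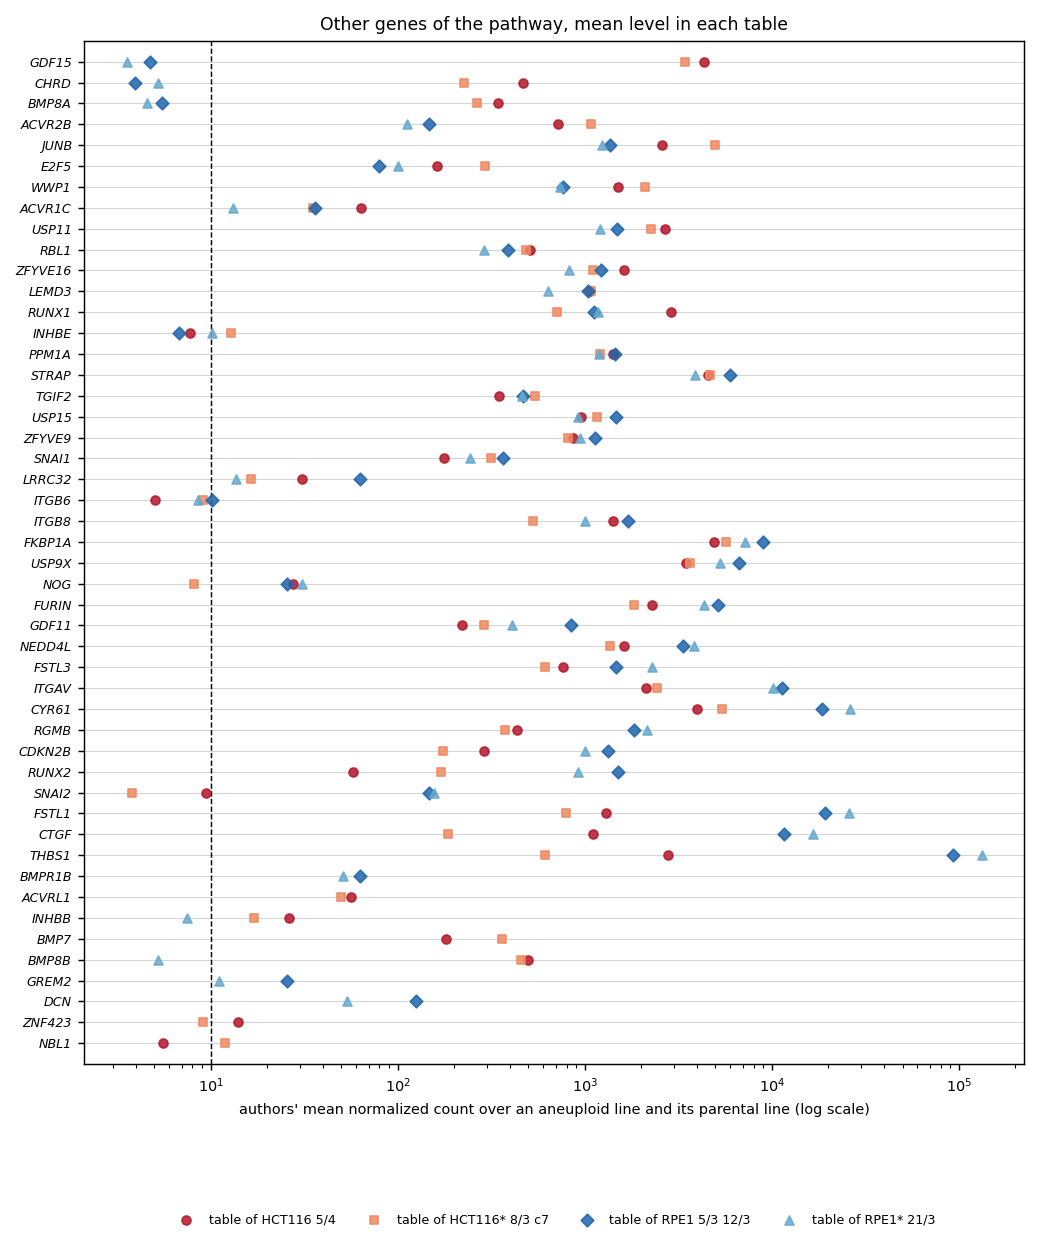
Mean normalized count (log axis) in the 4 tables for further pathway genes that reached a mean of 10 in at least 1 table, each point 1 table, ordered by the difference between cell types and with genes not listed in some table at the bottom. GDF15, CHRD and BMP8A at the top have their HCT116 points far to the right, and THBS1 and CTGF have their RPE1 points there.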

How the data were processed

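mRNA of 24 libraries (3 of each of 8 lines, sequenced as single reads of 100 bp) was summarized by the authors in 4 tables. Adapters were removed with cutadapt, reads were mapped to hg19 with TopHat2 2.0.10 keeping 1 location per read, and counted on exons of RefSeq genes with featureCounts 1.4.3. No strand option is named, so overlapping and antisense genes cannot be told apart. The deposited signal of a gene is the authors' mean of counts divided by DESeq2 size factors over the 6 libraries of a table. The other 5 columns of each table hold the authors' own comparison (log2 fold change, its error, statistic and p-values) and were not used. No column holds the values of a single library, so the count test foreseen for such columns could not be run, no replicate could be left out, and aneuploid lines were not compared with their parental lines here.

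Tables were shifted by median log2 ratios and compared on the log2(mean + 1) scale. The scripts were tested on simulated data. Positions and lengths came from GENCODE on GRCh37, the build of hg19, in which all 43 were found by symbol, and promoters from RefSeq on GRCh38.p14. Protein sequences were not used here. Values in all tables were given for members set apart, members over 2-fold between tables of a cell type and members under a mean of 10 in some table, and the others by range, with up to 3 names at each end of the list of further genes. The values of 1 gene of that list, which its counts include, are not reported here. The members and lists were chosen with earlier results of these data known. Alternatives were other scalings, pseudocounts, level filters, folds and single pairs of tables. Computation used pandas 2.3.3 and numpy 2.4.6 under Python 3.11.15, and plots matplotlib 3.10.9. The depth of single libraries is not known from pooled means, which limits the precision that can be stated.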

Additional observations from a re-analysis of the deposited data

How the results depend on the processing

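No paired analysis was possible because each table holds 1 pooled mean per gene and no test was made, and for the same reason no library could be left out. Of the 16 members set apart between cell types, 15 stayed so with the means as deposited and with equal sums of means per table. SMAD3 was lost in both, and all 16 stayed with a pseudocount of 0 or 10. Under equal sums 4 of 36 members were higher in HCT116, where 15.5% of all genes were, and 11 in RPE1, where 7.53% were. The shares of all genes higher in HCT116 and RPE1 were 9.52% and 10.9% at a pseudocount of 0, and 8.84% and 10.4% at 10. At a mean of at least 100, 4 of 30 members were higher in HCT116 and 9 in RPE1. The shares of all genes were then 5.36% and 9.42%. With a threshold of 4-fold, 1 of 36 members was higher in HCT116 and 6 in RPE1, where 2.95% and 4.1% of all genes were. Between the tables without H2B-GFP alone, HCT116 5/4 and RPE1 5/3 12/3, 7 members were higher in HCT116, where 13.9% of all genes were. BMP4, LTBP4 and SMURF2 were added there. In the same pair 13 members were higher in RPE1, where 14.1% of all genes were. Between the tables with H2B-GFP 18 members were higher in RPE1, where 16.4% of all genes were. Higher in HCT116 were 4 of 36, where 14.3% of all genes were. BMP4 was then among those higher in RPE1, so that its direction turned between the pairs of tables. The differences of ENG, TGFBR1 and ID3 turned as well. Between tables of a cell type, 4 members differed in HCT116 and 3 in RPE1 at 1.5-fold, where 11.4% and 7.6% of all genes did. Without the filter, which adds genes with low means, these counts were 5 and 2 of 39, where 4.68% and 2.91% of all genes did. The differences of the 16 members set apart kept their direction under each alternative in which they were measured. Only the other scalings could have changed it, since the rule that set them apart fixed it under the rest. A mean of at least 100 left out BMP6, LTBP2 and SMAD9. Over all alternatives, 40 differences moved by at least the standard deviation of the 4 pairings, and 117 moved by less. With canonical transcript lengths, an alternative chosen after seeing the data, 16 of the 20 entries at ranks 1 to 5 stayed at ranks 1 to 5, some in another order. Means under 10 come from few reads, and their folds are the least precise.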
